A study of Mus musculus with 12 samples.

Results

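Proteins that a cell secretes or places in its membranes are made at the rough endoplasmic reticulum (ER). The signal recognition particle (SRP) binds the signal sequence of a growing chain, the SRP receptor docks the ribosome at the ER, and the chain passes through the Sec61 channel, with the help of Sec62, Sec63, Tram1 and the translocon-associated protein (TRAP) complex. Signal peptidase then removes the signal sequence, and the oligosaccharyltransferase (OST) attaches a preassembled sugar chain to asparagines of the protein. Pancreatic β cells depend on this route, since preproinsulin crosses the ER membrane through it. In mammals the transcription factors ATF6 and XBP1 of the unfolded protein response are known to activate many of its genes.

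The 33 genes described here encode these factors. They are the probes whose platform annotation gives 1 of the listed symbols. The rule uses no measured value, although the list was drawn up with earlier results of these data known. All 33 had a probe, 58 in all, and 32 were measured above background and tested among 12001 features, of which 9493 were named genes. Tusc3, a subunit of OST complexes with Stt3b, was not detected on any array and has no value here.

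The cells were MIN6, a mouse insulinoma line that keeps features of β cells, and RNA of 6 groups with 2 replicates each was hybridised to 12 Illumina MouseWG-6 v2 arrays. The transfected control carried the rtTA and tetO-184 plasmids, which express miR-184 when doxycycline is added, and was given no doxycycline. The induced groups held the same plasmids, with doxycycline at 1 µg/ml during 16, 24, 48 or 72 hr. The untransfected control received lipofectamine and 1 µg/ml doxycycline without plasmids. Both plasmids were introduced overnight into cells of a single line, the arrays do not measure miR-184 itself, and no harvest time is given for either control. The series describes triplicates for each time point, while 2 arrays for each group were analysed here, so that p-values measure only the spread between these arrays.

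The induced RNA is shown for reference, as RefSeq lists the mature 3′ arm of mouse miR-184 at chr9:89802263-89802284 on the minus strand of GRCm38.p6, with its seed (bases 2 to 8) in capitals.
mmu-miR-184-3p: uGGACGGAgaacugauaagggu

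The 6 groups sat on each of 2 slides at fixed positions, and an effect of position cannot be told apart from that of the group. Arrays of a slide deviated together from their group means, and the fit with the slide as a block is given beside the fit without it where a call changed. On each array 15243 to 16737 of 45281 probes had a detection p under 0.01. All 10 β-cell markers on the array, including Ins2, Iapp and Pdx1, were detected on all 12 arrays, and none of 5 exocrine and duct, 6 stromal and 5 endothelial and immune markers was detected on any array. Of 5 markers of other islet cells on the array, Gcg, Ppy and Irx2 were detected on all arrays, Ghrl on 1 and Sst on none. In such bulk RNA, fewer cells of a kind and less RNA per cell cannot be told apart.

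At 72 hr of induction, 7 of the 32 genes were lower than in the transfected control and 0 were higher (limma, Benjamini-Hochberg adjusted p under 0.05 over all features). Over all features, 2.75% were lower in this comparison. The 7 genes were Sec61a1, Ddost, Ostc, Spcs3, Ssr2, Tram1 and Sec11a, and they belong to 5 of the 8 groups of factors described below. With the slide as a block, 20 genes were lower and 0 higher, against 8.76% of all features that were lower. The median log2 fold change of the 32 genes was −0.61 (−0.55 on slide 1 and −0.61 on slide 2), whereas that of all features was 0. Normalization between arrays holds the median of all features near 0. Of the 32 genes, 31 had a negative log2 fold change, the exception being Sec62. The counts and medians include Spcs2, which passed the detection filter only through control and 16 hr arrays. It was detected on 0 arrays at 24, 48 and 72 hr.

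Without the block, all 7 calls were lost when either transfected control array or replicate 2 of the 72 hr arrays was left out. Those fits called 0 of the 32 genes, and 20 of all 12001 features without transfected control replicate 1 and 0 without each of the other 2 arrays. Leaving out replicate 1 of the 72 hr arrays kept the 7 calls and gave 12 genes, among 1504 features. With the block, the fit called 10 genes and 1411 features without transfected control replicate 1, 3 genes and 165 features without transfected control replicate 2, 6 genes and 743 features without 72 hr replicate 2, and 18 genes and 2875 features without 72 hr replicate 1. The counts over all features are for either direction. Sec61a1, Ostc and Spcs3 passed in all 4 of these blocked fits.

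**Figure D1:**
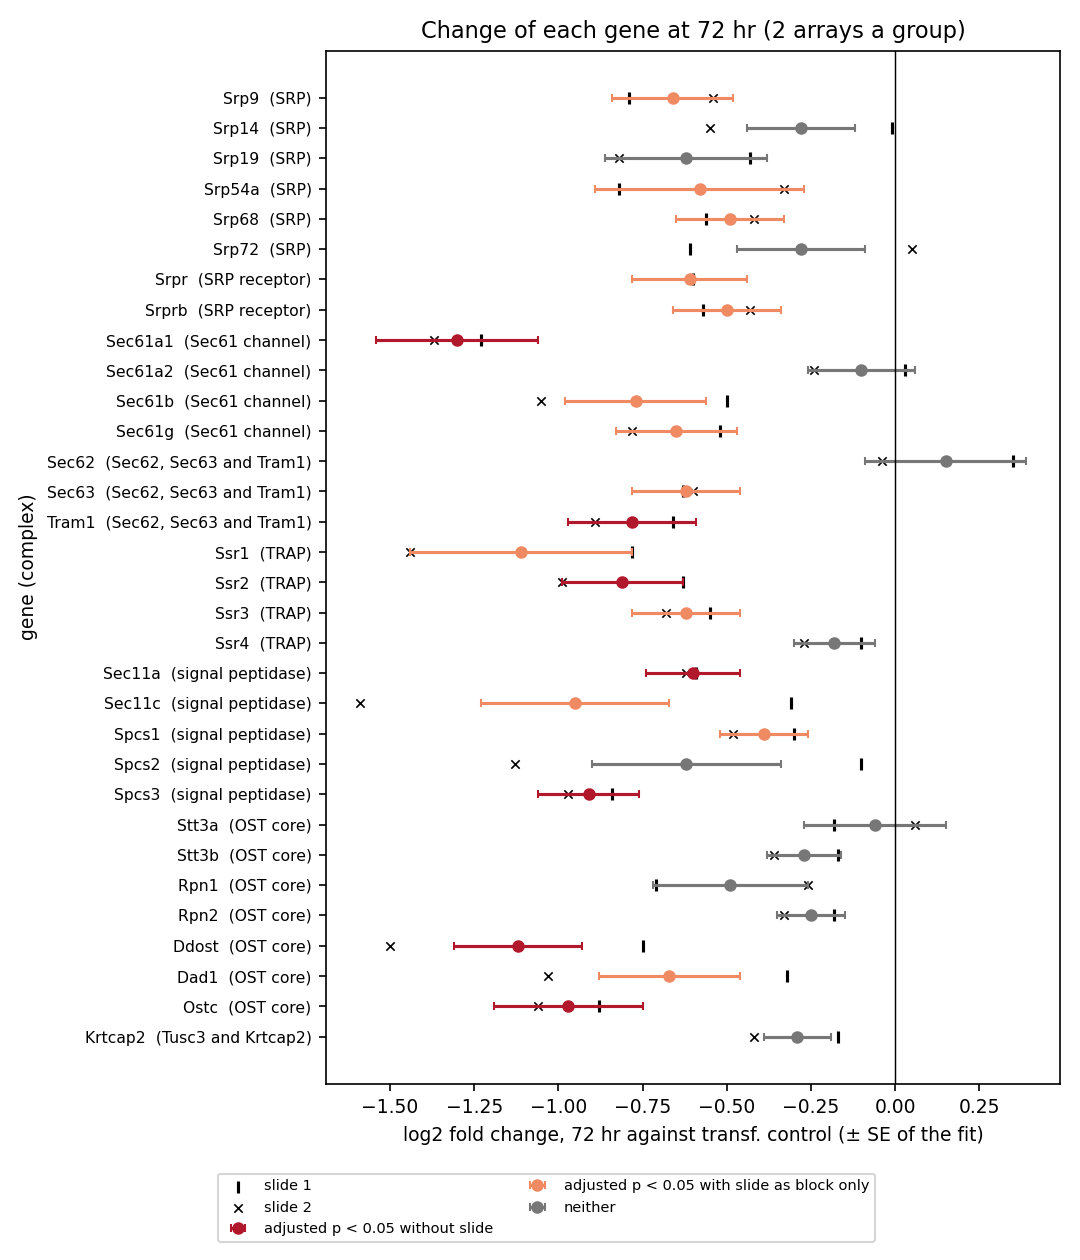
Log2 fold change at 72 hr against the transfected control for each of the 32 genes, grouped by complex. Dots with bars are the estimate and its standard error from the fit, ticks and crosses are the differences within slide 1 and slide 2, and color marks whether the gene passed without the slide as a block (7 genes), only with it (13 further genes) or in neither fit.

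The arrays can also be compared without a model. Both 72 hr arrays lay below both transfected control arrays for 28 of the 32 genes, against 26.3% of all features. The exceptions were Srp72, Sec61a2, Sec62 and Stt3a. Both 72 hr arrays lay below all 4 control arrays, the untransfected ones included, for 27 genes, against 20.2% of all features. The 28 and the 27 genes include Spcs2, which was detected on neither 72 hr array. With the untransfected control in place of the transfected control, 12 genes were lower and 0 higher, against 3.5% of all features that were lower.

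Among the Sec61 genes, those for the pore-forming subunit in its more widely expressed form and for both small subunits were lower at 72 hr, 1 of 4 without the block and 3 of 4 with it. Sec61a1, which encodes the pore, had the lowest log2 fold change of the 32 genes. Its log2 signal on slides 1 and 2 was 11.40 and 11.49 in the untransfected control, 11.69 and 11.38 in the transfected control, 11.55 and 11.21 at 16 hr, 11.59 and 11.40 at 24 hr, 11.12 and 10.38 at 48 hr, and 10.45 and 10.00 at 72 hr. The 72 hr arrays were below every other array on their own slide and, as a pair, overlapped with the 48 hr arrays only. Before normalization, the probe's signal was 3064 and 3213 in the transfected control, against 1407 and 1071 at 72 hr. Sec61a1 was 10.23 ± 0.32 at 72 hr against 11.53 ± 0.22 (SD, n = 2), which was 2.47-fold lower, with a log2 fold change of −1.30 (SE 0.24, adjusted p = 0.0219 by limma). A second Sec61a1 probe had a log2 fold change of −0.84 and passed with the block only, in a fit of all kept probes (adjusted p = 0.0572 without and 0.0182 with it, limma). That probe had a mean signal of 152 before normalization and was detected on 11 of the 12 arrays.

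Sec61a2, which encodes a close relative of the same pore subunit, did not pass (log2 fold change −0.10, SE 0.16, adjusted p = 0.717 by limma). Its log2 signal on slides 1 and 2 was 10.57 and 10.18 at 72 hr, against 10.53 and 10.42 in the transfected control. Within each array, the difference between the Sec61a1 and Sec61a2 probes was therefore lower at 72 hr than in the transfected control of the same slide, with changes of −1.27 on slide 1 and −1.14 on slide 2. At 48 hr the changes were −0.74 and −1.09. On the 16 hr, 24 hr and untransfected control arrays they lay between −0.32 and 0.06. No p-value was computed for this difference of 2 probes, which was chosen after its values were seen. The second kept probes of the 2 genes differed less in their change at 72 hr. On slides 1 and 2 they were at −0.69 and −0.99 for Sec61a1 and at −0.05 and −0.72 for Sec61a2. Of the small subunits, Sec61b had a log2 fold change of −0.77 (adjusted p = 0.0556 without and 0.0117 with the block, limma) and Sec61g of −0.65 (0.0576 and 0.00468).

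**Figure D2:**
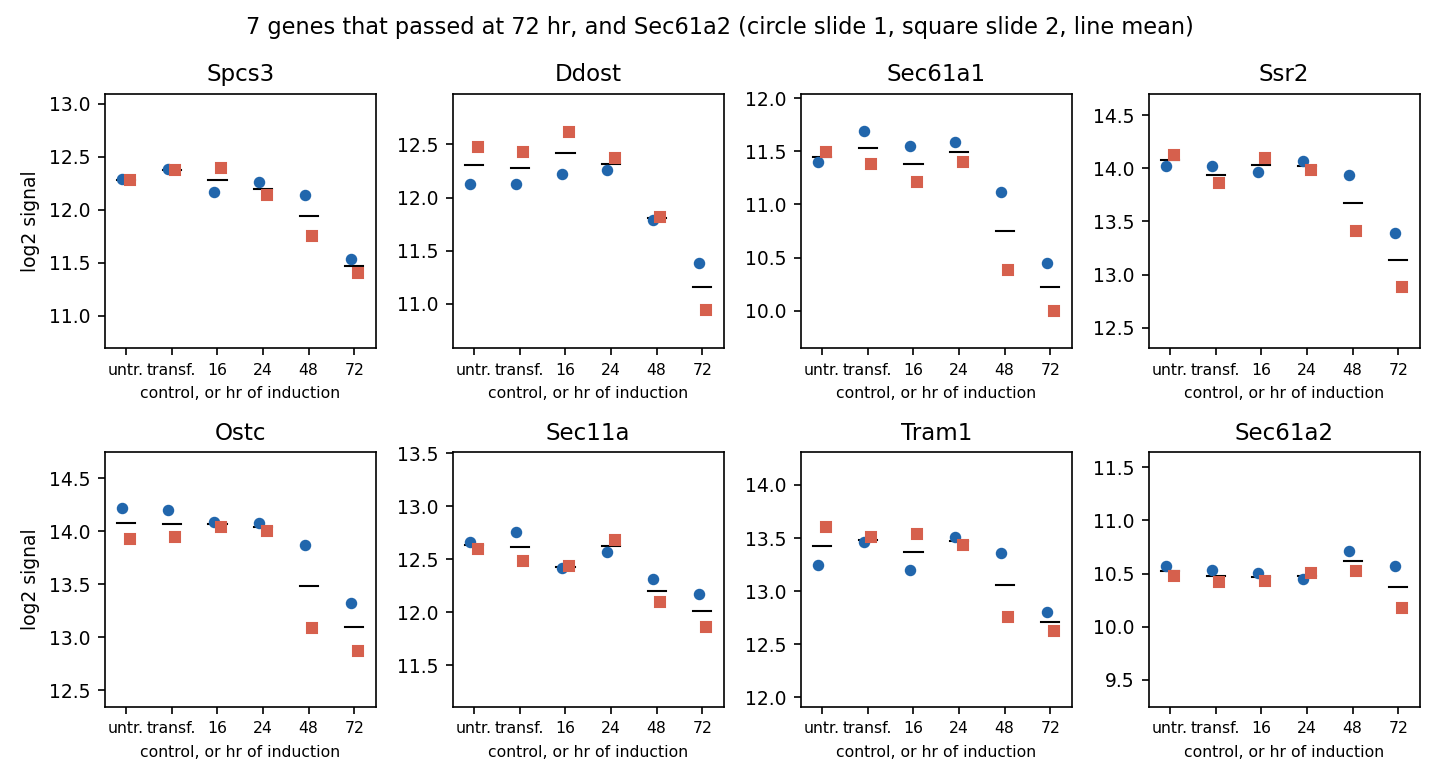
Normalized log2 signal on every array for the 7 genes that passed at 72 hr and for Sec61a2, with the controls first and then 16, 24, 48 and 72 hr of induction. Circles are slide 1, squares slide 2 and lines the mean, and all panels span the same range of log2 units. For Sec61a1 the 72 hr arrays are at 10.45 and 10.00 against 11.69 and 11.38 in the transfected control, while for Sec61a2 they are at 10.57 and 10.18 against 10.53 and 10.42.

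Among the factors that bring chains to the channel, none of 6 SRP genes and none of 2 SRP receptor genes passed without the block, and 3 and 2 passed with it, all lower. Their median log2 fold changes at 72 hr were −0.53 and −0.55. Srp9, whose product forms with Srp14 the domain that slows elongation, had the smallest p of the SRP genes. Srp9 signals on slides 1 and 2 were 11.81 and 11.58 in the untransfected control, 11.85 and 12.01 in the transfected control, 11.67 and 11.82 at 16 hr, 11.52 and 11.63 at 24 hr, 11.50 and 11.11 at 48 hr, and 11.06 and 11.48 at 72 hr. The 48 and 72 hr arrays lay below all the others. The log2 fold change was −0.66 (SE 0.18, adjusted p = 0.0517 without and 0.0188 with the block, limma). Srp68, whose product pairs with that of Srp72 in the particle, and Srp54a, whose product binds the signal sequence, had log2 fold changes of −0.49 and −0.58 and passed with the block (adjusted p = 0.0403 and 0.0463, limma). Srp54a has close copies in the mouse genome, and its probe was not checked against them. Srp14, Srp19 and Srp72, at −0.28, −0.62 and −0.28, passed in neither fit.

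Srpr, the GTPase subunit of the SRP receptor, was measured at 11.08 and 11.27 in the untransfected control, 11.08 and 11.07 in the transfected control, 10.70 and 11.11 at 16 hr, 10.92 and 11.23 at 24 hr, 10.96 and 10.88 at 48 hr, and 10.47 and 10.46 at 72 hr. Only the 72 hr arrays were below all the others. Its log2 fold change was −0.61 (SE 0.17, adjusted p = 0.0541 without and 0.0138 with the block, limma). Srprb, which anchors the receptor in the membrane, was at −0.50 and was called in the blocked fit (adjusted p = 0.0349, limma). A second Srprb probe gave 0.15.

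Tram1, a membrane protein that contacts chains as they leave the channel, was the 1 of 3 channel partners to pass without the block. Tram1 signals were 13.25 and 13.60 in the untransfected control, 13.46 and 13.51 in the transfected control, 13.20 and 13.54 at 16 hr, 13.51 and 13.43 at 24 hr, 13.36 and 12.76 at 48 hr, and 12.80 and 12.62 at 72 hr. Replicate 2 at 48 hr was as low as the 72 hr arrays, and replicate 1 was within the range of the earlier arrays. At 72 hr the log2 fold change was −0.78 (SE 0.19, adjusted p = 0.0452, limma). Sec63, whose product recruits the chaperone BiP to the channel, had −0.62 and passed with the block (adjusted p = 0.051 without and 0.0186 with it, limma). Sec62, its partner in the import of finished chains, was at 0.15 (adjusted p = 0.723, limma), with a signal near background that was detected on 11 of the 12 arrays.

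Among the 4 TRAP genes, Ssr2 passed without the block and Ssr1, Ssr2 and Ssr3 with it. Ssr2 signals were 14.02 and 14.13 in the untransfected control, 14.02 and 13.86 in the transfected control, 13.97 and 14.10 at 16 hr, 14.07 and 13.98 at 24 hr, 13.94 and 13.41 at 48 hr, and 13.39 and 12.88 at 72 hr. The log2 fold change at 72 hr was −0.81 (SE 0.18, adjusted p = 0.0373, limma). Ssr1 had a larger estimate, −1.11, with a wider error (SE 0.33, adjusted p = 0.069 without and 0.0148 with the block, limma). Its signals were 9.82 and 9.99 in the transfected control, 9.58 and 8.29 at 48 hr, and 9.04 and 8.54 at 72 hr, so that replicate 2 was the lower array at both late times. Ssr3 was at −0.62. Ssr4 was at −0.18 (adjusted p = 0.342, limma), with a signal of 14860 to 27320 before normalization. A second Ssr4 probe gave −0.35 and passed with the block in the fit of all kept probes (adjusted p = 0.0802 without and 0.0334 with it, limma).

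Of 5 signal peptidase genes, 2 were lower without the block and 4 with it. Spcs3, an accessory subunit of the enzyme, had the smallest p of all 32 genes. Spcs3 signals were 12.29 and 12.28 in the untransfected control, 12.38 and 12.37 in the transfected control, 12.17 and 12.39 at 16 hr, 12.26 and 12.14 at 24 hr, 12.14 and 11.75 at 48 hr, and 11.54 and 11.40 at 72 hr. Its replicates differed by 0.14 at 72 hr and by 0.01 in the transfected control, and the log2 fold change was −0.91 (SE 0.15, adjusted p = 0.0148, limma), or 1.87-fold lower. Sec11a, a catalytic subunit, was measured at 12.66 and 12.60 in the untransfected control, 12.76 and 12.48 in the transfected control, 12.42 and 12.44 at 16 hr, 12.57 and 12.68 at 24 hr, 12.31 and 12.10 at 48 hr, and 12.17 and 11.86 at 72 hr. Its log2 fold change at 72 hr was −0.60 (SE 0.14, adjusted p = 0.0403, limma), with −0.59 and −0.62 on the slides.

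Sec11c, the alternative catalytic subunit, differed more between slides, with −0.31 on slide 1 and −1.59 on slide 2 (log2 fold change −0.95, adjusted p = 0.067 without and 0.0258 with the block, limma). Spcs1 was at −0.39 and passed with the block (adjusted p = 0.0443, limma). Spcs2 was not well above background on either 72 hr array and was detected on 1 of the transfected control arrays, so that no fold is given, and it passed in neither fit.

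Of 7 core OST genes, 2 were lower without the block and 3 with it. Ddost, a non-catalytic subunit shared by all OST complexes, was at 12.13 and 12.48 in the untransfected control, 12.13 and 12.43 in the transfected control, 12.22 and 12.62 at 16 hr, 12.26 and 12.37 at 24 hr, 11.79 and 11.82 at 48 hr, and 11.38 and 10.94 at 72 hr. The 48 hr arrays lay below all earlier ones and the 72 hr arrays lower again. Ddost was 2.18-fold lower at 72 hr, with a log2 fold change of −1.12 (SE 0.19, adjusted p = 0.0182, limma). Ostc, a subunit of the OST complex with Stt3a that works at the channel, was at 14.22 and 13.93 in the untransfected control, 14.20 and 13.94 in the transfected control, 14.09 and 14.04 at 16 hr, 14.08 and 14.00 at 24 hr, 13.87 and 13.09 at 48 hr, and 13.32 and 12.87 at 72 hr. Its log2 fold change was −0.97 (SE 0.22, adjusted p = 0.0383, limma), or 1.96-fold lower.

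The catalytic subunits passed in neither fit. Stt3a was at −0.06 (SE 0.21, adjusted p = 0.885, limma) and Stt3b at −0.27 (SE 0.11, adjusted p = 0.148, limma). Dad1, a small core subunit, was at −0.67 and passed with the block (adjusted p = 0.0323, limma), while the ribophorin genes Rpn1 and Rpn2 were at −0.49 and −0.25 and did not. The Rpn2 signal was 23470 to 36330 before normalization. Krtcap2, a further subunit of the OST complex with Stt3a, was at 13.99 and 13.95 in the untransfected control, 13.99 and 14.16 in the transfected control, 14.04 and 14.08 at 16 hr, 13.94 and 13.88 at 24 hr, 14.00 and 13.83 at 48 hr, and 13.82 and 13.74 at 72 hr. Its 72 hr arrays were the lowest, with a log2 fold change of −0.29 (SE 0.10), and it passed in neither fit (adjusted p = 0.109 without and 0.0608 with the block, limma).

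Of the 32 genes, 13 had several probes that passed the detection filter, and in 12 of these the kept probes had log2 fold changes of 1 sign at 72 hr, the exception being Srprb. In a fit of all kept probes, a second Spcs3 probe also passed without the block (−1.14, adjusted p = 0.0314, limma). Both further Tram1 probes, at −0.82 and −0.89, passed with the block only (adjusted p = 0.0129 and 0.0134, limma). Further probes of Sec63 (−0.41 and −0.29), Spcs1 (−0.35) and Ssr1 (−0.53) passed in neither fit, whereas the probe used did with the block. A second Sec61a2 probe was at −0.38 and did not pass.

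The time course placed these differences late. At 16 hr, 0 of the 32 genes passed with or without the block, as did 0% of all features without it, and 0 genes had an unadjusted p under 0.05, which 0.392% of all features had in the lower direction. Their median log2 fold change was 0. At 24 hr, 0 genes passed in either fit, 0 had an unadjusted p under 0.05, which 1.15% of all features had in either direction, and the median was −0.03. Of all features, 0% passed at 24 hr without the block. At 48 hr, 0 genes passed without the block, as did 0% of all features. At an unadjusted p under 0.05, 14 genes were lower, against 5.44% of all features (limma). With the block, Sec61g (adjusted p = 0.0444) and Sec61a1 (adjusted p = 0.0493) were lower at 48 hr by limma, against 0.392% of all features. The median at 48 hr was −0.38, and both 48 hr arrays lay below both transfected control arrays for 22 genes, against 19.2% of all features. The 22 genes include Spcs2, which was detected on neither 48 hr array. Between the controls, 0 genes passed, as did 0% of all features without the block. The controls differed in plasmids and in doxycycline, and these effects cannot be told apart. Srp72 alone had an unadjusted p under 0.05, with a log2 fold change of −0.41 in the transfected relative to the untransfected control. Of all 12001 features, 45 were lower and 64 higher at that p (limma).

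**Figure D3:**
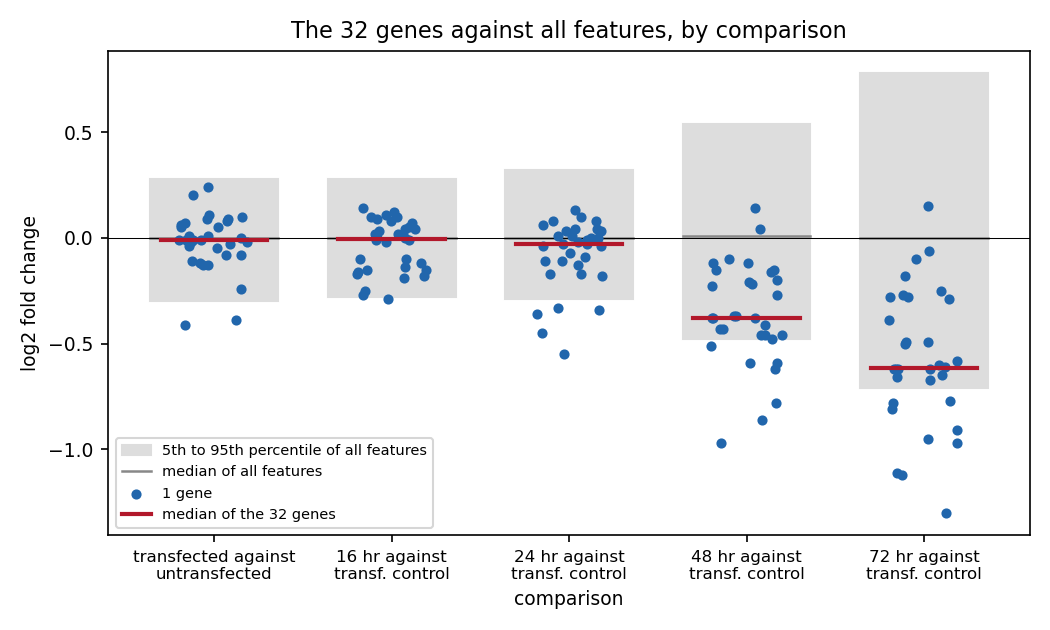
Log2 fold change of each of the 32 genes (blue) and their median (red) for the transfected against the untransfected control and for 16, 24, 48 and 72 hr against the transfected control. Grey boxes hold the middle of all 12001 features, from the 5th to the 95th percentile, and the comparisons with the transfected control share its 2 arrays. The medians are −0.01, 0, −0.03, −0.38 and −0.61.

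The change from 16 to 72 hr was also tested directly. Ddost, Spcs3, Ssr2, Sec61a1 and Ostc were lower at 72 than at 16 hr and 0 genes were higher, against 1.44% of all features that were lower. With the block 16 genes were lower, against 8.65% of all features. Without the block, leaving out 16 hr replicate 1, 16 hr replicate 2 or 72 hr replicate 2 left 0 genes and 0 of all features, and leaving out 72 hr replicate 1 gave 10 genes and 1512 features. With the block, these fits called 9 genes and 990 features, 0 and 8, 7 and 570, and 18 and 2834, in the same order. Sec62 was the only gene of the 32 with a positive estimate (0.42, adjusted p = 0.288, limma).

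The late arrays of a group differed from each other. Relative to the mean of the transfected control, the 32 genes had a median of −0.22 on replicate 1 and −0.52 on replicate 2 at 48 hr, and of −0.50 and −0.62 at 72 hr. On the control, 16 hr and 24 hr arrays the medians were between −0.07 and 0.01. The median difference between replicates of a group was 0.11 to 0.17 for these genes up to 24 hr, and 0.27 and 0.30 at 48 and 72 hr, and replicate 2 was the lower array for 25 of the 32 genes at each of these times. The corresponding median over all features also widened, from 0.17 to 0.21 up to 24 hr to 0.27 and 0.25.

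**Figure D4:**
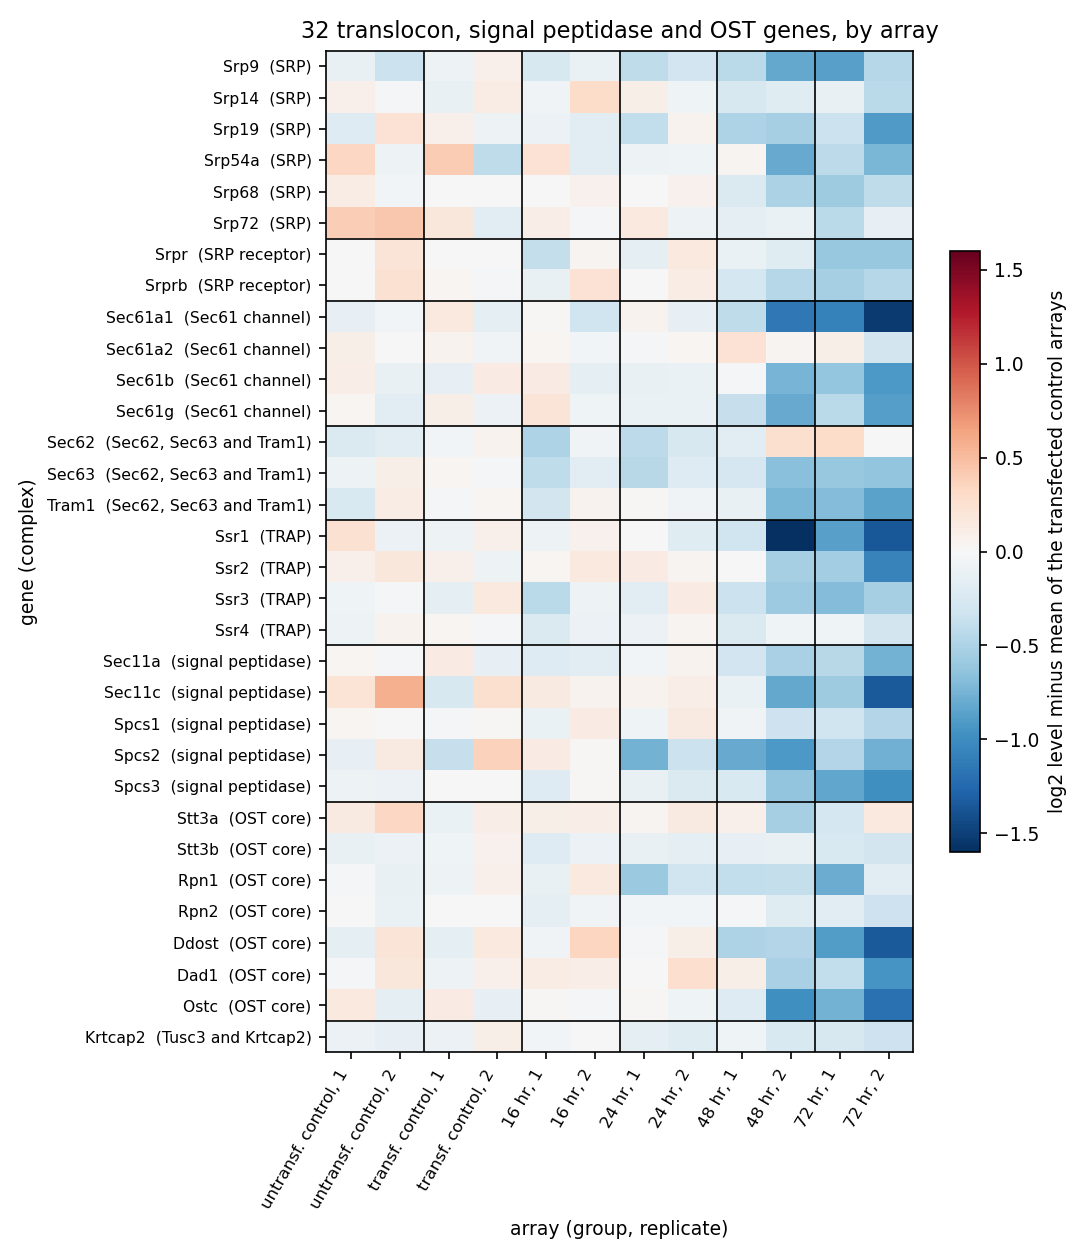
Log2 level of each of the 32 genes on each of the 12 arrays, minus the mean of the transfected control arrays, with blue below and red above that mean. Rows are grouped by complex and columns by group and replicate. Both 48 hr and both 72 hr arrays are below that mean for most genes (28 and 30, and 30 and 30, of 32), with medians of −0.22 and −0.52 at 48 hr and of −0.50 and −0.62 at 72 hr.

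Related genes were compared at 72 hr to place these values. In a further list of genes related to OST, Mlec, which encodes the ER lectin malectin, was lower (log2 fold change −1.34, SE 0.32, adjusted p = 0.0409, limma). Ost4 was at −0.39 and passed in neither fit. Of the other listed genes, Magt1 did not pass the detection filter and Tmem258 had no probe under that symbol. Of 21 genes for the synthesis of the lipid-linked sugar chain that OST transfers, 2 were lower and 0 higher, or 4 and 0 with the block, with a median of −0.25. The 2 genes were the mannosyltransferases Alg3 (−0.88, adjusted p = 0.0441) and Alg12 (−0.68, adjusted p = 0.0458), both by limma. Of 5 genes that trim the attached chain or check its folding, Mogs, the glucosidase that acts first, was lower (−0.93, adjusted p = 0.0353, limma) and the median was −0.31.

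Other routes into the ER membrane had medians nearer to that of all features. Of 10 genes of the ER membrane complex, which inserts membrane proteins, 0 passed without the block. At an unadjusted p under 0.05, 1 was lower (Emc7, −0.73) and 1 higher (Emc3), against 1481 lower and 1589 higher of all 12001 features (limma). With the block Emc3 was higher (0.42, adjusted p = 0.0351, limma), as were 1254 of all 12001 features, and Emc7 did not pass (adjusted p = 0.0644, limma). The median of the list was −0.06. Of 7 tail-anchor insertion genes, 0 passed without the block and Ubl4a alone had an unadjusted p under 0.05 (log2 fold change −0.94). Ubl4a was lower with the block (adjusted p = 0.0143, limma), and the median of the list was −0.10. Of 5 genes of the multipass translocon and its partners, 0 passed in either fit, 0 had an unadjusted p under 0.05, and the median was −0.20. The differences between these lists were not tested.

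**Figure D5:**
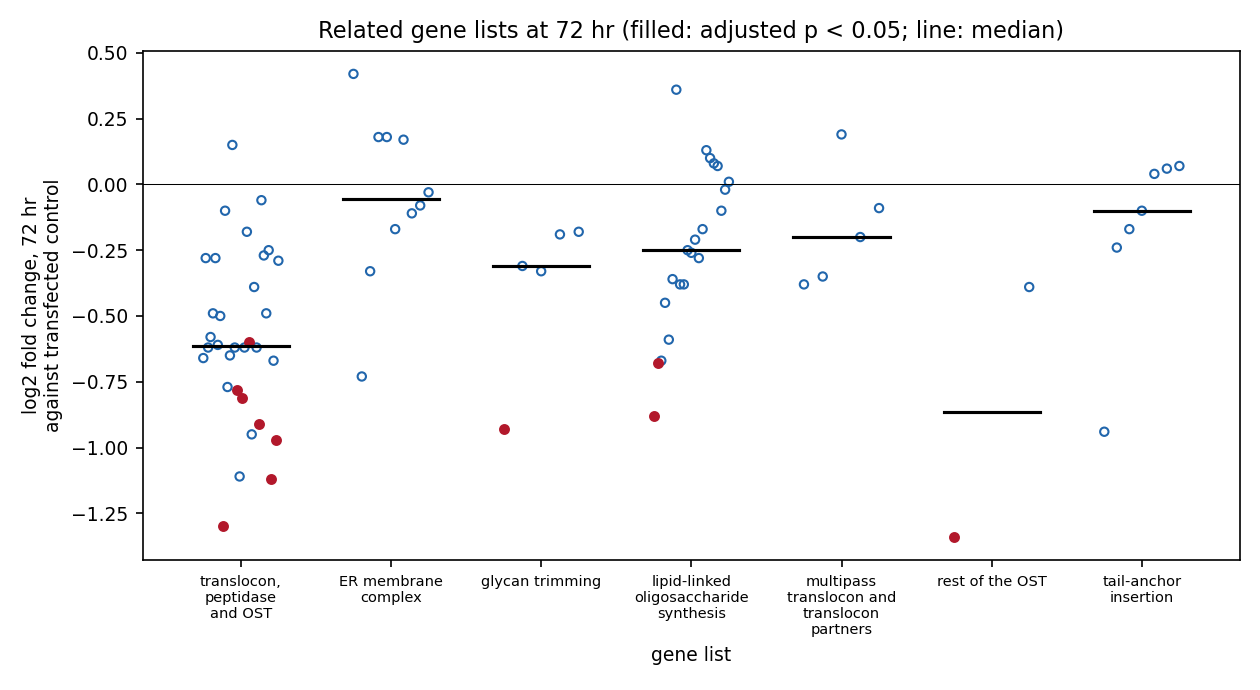
Log2 fold change at 72 hr against the transfected control for the 32 genes and for 6 related lists, 1 point per gene. Filled points passed without the slide as a block, and lines are list medians, which are −0.61 for the 32 genes, −0.06 for the ER membrane complex and −0.25 for lipid-linked oligosaccharide synthesis.

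Promoters were examined because many of the genes moved together. RefSeq start sites (GRCm38.p6) gave 300 bases, 250 before to 50 after the start, for 24 of the 33 genes. Of the 7 genes lower at 72 hr without the block, Ddost and Sec11a had such an entry. Known elements of the unfolded protein response were searched on both strands. The longer ER stress element (CCAAT, then 9 bases of any kind, then CCACG) was in 0 of 24 genes and in 0.137% of 27025 genes. The shorter element (ATTGG, any base, then CCACG) was in 1 gene, Krtcap2, and in 0.0444% of all genes. TGACGTG, the core of a further element, was in Srpr alone and in 2.22% of all genes. The CCACG shared by both ER stress elements was in 16 of 24 genes and in 35.5% of all genes. A gene counted when the promoter of any of its start sites matched. The 27025 genes were not matched to these in expression or base composition, and the differences in share were not tested. A match is a run of letters and was not tested for binding.

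Shown are the promoters of Ddost (chr4:138304488-138304787, plus strand) and Sec11a (chr7:80947501-80947800, minus strand), genes that were lower at 72 hr, with CCACG or its reverse complement in capitals. Those of Srpr (chr9:35210953-35211252, plus strand) and Krtcap2 (chr3:89246223-89246522, plus strand), the genes with a longer match, have TGACGTG and the shorter ER stress element in capitals. Srpr was lower with the block only and Krtcap2 passed in neither fit.
Ddost: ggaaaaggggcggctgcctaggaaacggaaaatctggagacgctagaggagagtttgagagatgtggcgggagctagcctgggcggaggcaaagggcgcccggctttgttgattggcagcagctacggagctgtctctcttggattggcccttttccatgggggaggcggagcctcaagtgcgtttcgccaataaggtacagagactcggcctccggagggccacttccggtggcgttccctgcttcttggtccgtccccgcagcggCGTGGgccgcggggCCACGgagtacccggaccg
Sec11a: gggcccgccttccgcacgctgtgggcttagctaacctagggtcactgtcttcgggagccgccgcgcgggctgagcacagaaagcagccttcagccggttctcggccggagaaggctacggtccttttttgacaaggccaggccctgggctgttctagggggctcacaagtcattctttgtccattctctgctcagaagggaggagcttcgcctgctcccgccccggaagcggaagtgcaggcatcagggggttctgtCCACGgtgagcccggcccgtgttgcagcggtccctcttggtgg
Srpr: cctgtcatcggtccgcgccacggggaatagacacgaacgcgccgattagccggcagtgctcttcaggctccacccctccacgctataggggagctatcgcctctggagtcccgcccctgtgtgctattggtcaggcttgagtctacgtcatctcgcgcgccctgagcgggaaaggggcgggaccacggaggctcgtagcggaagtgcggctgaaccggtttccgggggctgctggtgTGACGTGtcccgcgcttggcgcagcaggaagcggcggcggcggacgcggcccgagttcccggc
Krtcap2: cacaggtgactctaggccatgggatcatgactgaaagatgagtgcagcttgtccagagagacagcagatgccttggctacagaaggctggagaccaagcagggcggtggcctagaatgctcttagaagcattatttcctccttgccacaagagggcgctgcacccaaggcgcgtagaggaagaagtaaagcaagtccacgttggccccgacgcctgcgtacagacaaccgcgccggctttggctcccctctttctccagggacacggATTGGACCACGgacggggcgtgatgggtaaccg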

How the data were processed

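RNA of MIN6 cells in 6 groups of 2 was measured on 12 arrays. The authors deposited unnormalized intensities, each the average of a probe's beads on 1 array, and beside each a detection p-value. Whether background was subtracted before deposit is not given in the sources used here. The authors also deposited intensities normalized between arrays, for which the submitters' processing notes name lumi, and these were used only as an alternative.

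Background correction, which used the detection p-values, quantile normalization and the log2 transform with an offset of 16 were done by neqc (limma 3.58.1, R 4.3.3). Probes were kept if their detection p fell under 0.01 on 2 or more arrays, 17556 in all, and each gene was taken from its probe of highest mean, which left 12001 features. The 6 groups entered 1 limma fit with a variance trend and 6 residual degrees of freedom, followed by Benjamini-Hochberg adjustment over all features. Replicate numbers in the labels follow the slide, and deviations of same-numbered arrays were correlated for each of 15 pairs of groups, from 0.207 to 0.628 with a median of 0.434. The fit with the slide as a block had 5 residual degrees of freedom. Scripts were tested on simulated data. Figures were drawn with matplotlib 3.10.9 in Python 3.11.15.

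The members, gene lists and alternatives were chosen with earlier results of these data known. Values on every array are given for members that passed at 72 hr without the block and for the member with the smallest p in each of 8 complexes. Up to 3 genes of each related list, those with the smallest p, were named, and Emc3, Emc7 and Ubl4a fall under this rule. Ssr1, Sec61a2 and Ost4 were described further after their values were seen. As alternatives, the slide was blocked, the offset raised, background correction dropped, arrays scaled by their medians, the normalized intensities of the authors used, filters loosened or tightened, probes kept apart, fits limited to the groups compared, the methods' unpaired t-test run, the untransfected control used as reference, and arrays left out in turn. After the data were seen, fits without the 48 hr arrays and values within each slide were added. Precision is limited by the number of arrays.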

Additional observations from a re-analysis of the deposited data

Results flagged for a closer look

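Genes whose 72 hr value differed from their 16 hr value by the direct test were set apart for a closer look, since both groups carried the plasmids and received doxycycline. Hours of doxycycline, hours of miR-184 induction and any difference in time in culture cannot be told apart between these groups. There were 5 such genes, all lower at 72 hr on both slides. The log2 fold change was −1.26 for Ddost (SE 0.19, adjusted p = 0.0305, limma), with −0.84 and −1.68 on the slides. It was −0.81 for Spcs3 (SE 0.15, adjusted p = 0.0306, limma), with −0.63 and −0.99. It was −0.90 for Ssr2 (SE 0.18, adjusted p = 0.0376, limma), with −0.58 and −1.23. Sec61a1 was at −1.15 (SE 0.24, adjusted p = 0.0376, limma), with −1.10 and −1.21. Ostc was at −0.97 (SE 0.22, adjusted p = 0.0451, limma), with −0.78 and −1.16. All 5 also passed with the slide as a block (adjusted p between 0.0019 and 0.0042), and none passed without the block once 16 hr replicate 1, 16 hr replicate 2 or 72 hr replicate 2 was left out. The groups of 2 arrays are too small for a search for single outlying arrays.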

How the results depend on the processing

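For single genes at 72 hr, 510 values under the alternatives were compared with the reported ones. Of these, 424 kept direction and side of the threshold, 36 lost the call, 47 gained one and 3 changed sign. Only the 7 genes reported as lower could lose a call, and each had 16 alternatives. The call was lost in 7 for Sec11a, in 6 for Tram1, in 5 each for Ssr2, Ddost and Ostc, and in 4 each for Sec61a1 and Spcs3. With the slide as a block (the pairing), the count of members past the threshold was 2 at 48 hr, 20 at 72 hr and 16 from 16 to 72 hr. Limiting the fit to the groups compared gave 9 from 16 to 72 hr. The methods' t-test at an unadjusted p under 0.05 gave 1 at 24 hr, 2 at 48 hr, 8 at 72 hr and 1 between the controls. Of the genes reported as lower at 72 hr without the block, Ddost, Ostc, Ssr2 and Sec11a did not pass it. After Benjamini-Hochberg it gave 0 at 72 hr and 0 from 16 to 72 hr, where each gene has 2 residual degrees of freedom. No share of all features is given for this test or for the limited fit, so these counts are not read against one. The untransfected control gave 12 at 72 hr. Without the 48 hr arrays the count was 16 at 72 hr, where 5.04% of all features were lower, and 11 from 16 to 72 hr, where 4.51% were. Leaving out each array in turn gave 0 to 12 at 72 hr, 0 to 10 from 16 to 72 hr and 0 to 6 at 48 hr, where the 6 arose without 48 hr replicate 1, and the array left alone in its group was assumed to vary like the others. In these fits Stt3a ranged from −0.28 to 0.16 at 72 hr, with 0.04 without transfected control replicate 2, and Sec61a2 from −0.29 to 0.09. The causes of these shifts were not tested. No scaling moved the median of all features by more than 0.01, but each scaling brings the arrays to a common level. A median near 0 is therefore built in and is no measure of stability. Median scaling gave 163 lower and 149 higher features at 72 hr, where the reported fit gave 330 and 328.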
